A study of Homo sapiens with 16 samples.

Results

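The genes described here are 10 chemokine and inflammatory cytokine genes, out of 60623 genes listed in the count files: CCL2, CCL3, CCL4, CCL5, CXCL2, CXCL3, CXCL8, CXCL16, IL1B and TNF. They were chosen by name, with results of these libraries already known, so their differences from control are given as a description and carry no p-value. All samples were MUTZ-3, a myeloid leukemia line with an inv(3) rearrangement that places the proto-oncogene EVI1 (listed as MECOM) under a relocated enhancer. RNA-Seq was done on 16 libraries, 1 for each condition. In the PARP inhibitor (PARPi) experiment, cells were harvested untreated at 0 h, or after 12, 24 and 48 h with the vehicle DMSO, with 10 µM olaparib or with 1 µM talazoparib. In the knockdown experiment, cells carried the lentiviral vector pLKO.1 with a non-targeting control (NTC), shEVI1-2531 or shEVI1-2532, and were selected with puromycin and harvested at day 3 and day 6. The labels do not say from which step these days count. The growth medium of every group held serum, GM-CSF and medium conditioned by a bladder carcinoma line, a source of growth factors. MUTZ-3 is a single line, and the labels name no separate cultures.

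Chemokines are small secreted proteins that bind G protein-coupled receptors on leukocytes and direct their movement. CC chemokines such as CCL2 attract monocytes, and the CXC chemokines CXCL2, CXCL3 and CXCL8 attract neutrophils through CXCR2. IL1B and TNF are the 2 cytokines among the 10 genes, and both are produced mainly by monocytes and macrophages. Transcription of many of these genes is switched on by NF-κB, and several of their mRNAs carry AU-rich elements through which proteins of the ZFP36 family shorten their life.

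Library totals were 55999673 to 72681943 counts in the PARPi experiment, and 95523038 to 120716213 in the knockdown. Levels are given as CPM, counts of a gene scaled by the library total, and 3 counts, taken as the smallest level a library can show, equalled 0.0249 to 0.0536 CPM. No gene of the 10 was under 10 counts in any library. The lowest count was 20, of CCL4 in DMSO at 12 h, and the next lowest was 22, of CCL3 in NTC at day 3. Each ratio to control is given as a log2 value, with an exact 95% interval for the ratio of 2 Poisson counts, and this interval covers counting error only. MECOM, the target of the knockdown, was at 28.9% and 41.8% of NTC with shEVI1-2531 at day 3 and day 6, and at 10.6% and 9.10% with shEVI1-2532. In the inhibitor libraries MECOM was at 90.2%, 80.0% and 33.1% of DMSO with olaparib at 12, 24 and 48 h, and at 91.7%, 61.6% and 13.4% with talazoparib. Monocyte and macrophage markers (13 genes, among them LYZ, S100A8, S100A9 and CD14) were at a summed level of 1263 to 1751 CPM in DMSO and 1667 to 1868 CPM in NTC. Their sum was 1502 and 1535 CPM with olaparib and talazoparib at 12 h, 3078 and 4517 CPM at 24 h, and 9163 and 14370 CPM at 48 h. With shEVI1-2531 it was 3063 and 2937 CPM at day 3 and day 6, and with shEVI1-2532 9163 and 9663 CPM. LYZ, S100A8 and S100A9 weigh most in this sum, with highest levels of 5230, 3232 and 6907 CPM. By the edgeR tests described below, 8 of 12 markers rose against DMSO with time and 0 fell (10.0% and 9.82% of all genes). With shEVI1-2532, 10 of 13 rose and 0 fell (21.2% and 19.9% of all genes). With shEVI1-2531, 7 of 13 rose and 0 fell (9.49% and 7.90%). CSF1R, which was highest in the untreated library (302 CPM), and MRC1 were not called in any test. The part of this marker difference in the levels of the 10 genes was not tested, and in bulk RNA more cells of a type and more RNA per cell cannot be told apart. The immature myeloid markers CD34, KIT, CD33, SPI1, CEBPA, MPO and PTPRC were present in every library, although CD34 went as low as 3.37 CPM, whereas FLT3 did not exceed 30 counts and CD38 ranged from 6 to 527 counts. Of the 13 T and NK cell markers, 4 stayed under 10 counts in every library, as did 6 of the 10 epithelial and fibroblast markers. Others of these lists were present: CD4 was at 145 to 315 CPM, NKG7 at 5.58 to 20.8 CPM, PRF1 at 3.14 to 31.4 CPM, KRT8 at 3.97 to 14.15 CPM and KRT18 at 6.38 to 18.05 CPM. MS4A1 (CD20), a defining marker of B cells, was at 0 counts in all 16 libraries.

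The genes lie in clusters, as the coordinates in the files (GRCh38) show. CXCL8 (chr4:73740541-73743716, + strand), CXCL3 (chr4:74036589-74038807, − strand) and CXCL2 (chr4:74097040-74099196, − strand) share a stretch of chromosome 4, with 58232 bases between CXCL3 and CXCL2. CCL5 (chr17:35871491-35880793, − strand), CCL3 (chr17:36088256-36090169, − strand) and CCL4 (chr17:36103827-36105621, + strand) are neighbours on chromosome 17, with 13657 bases between CCL3 and CCL4. CCL2 (chr17:34255218-34257203, + strand) and CXCL16 (chr17:4733533-4739928, − strand) lie elsewhere on that chromosome, IL1B lies at chr2:112829751-112836816 (− strand) and TNF at chr6:31575565-31578336 (+ strand). Of the 100-base windows of the CCL3 transcript, 39.8% also occurred in AC243829.4, a gene on the opposite strand at the same place. CCL4 shared 5.59% of its windows with its copy CCL4L2, and CCL5 shared 7.50% with several other genes. CXCL16 shared no window, but it overlaps MED11 and ZMYND15 on the other strand, and how the counting treated strand is not given in the sources used here. Levels of CCL3, CCL4, CCL5 and CXCL16 are uncertain to that extent.

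Promoter sequences are shown because the genes differ in their matches to the NF-κB-type letter patterns searched here. Sites with other letters, or more than 250 bases before the start site, would be missed. A line without such capitals thus does not mean that the gene lacks a site. RefSeq (GRCh38.p14) held a promoter for 6 of the 10 genes, and none was printed for CCL2, CCL4, CCL5 and CXCL16. Each line gives the 120 bases that end just before the RefSeq start site, 5′ to 3′ on the strand of the gene. Matches to an NF-κB-type or a TATA-type pattern are in capitals.
CXCL2 (chr4:74099196-74099315): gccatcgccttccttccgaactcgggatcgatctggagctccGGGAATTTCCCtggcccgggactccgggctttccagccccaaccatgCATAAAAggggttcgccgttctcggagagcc
CXCL3 (chr4:74038690-74038809): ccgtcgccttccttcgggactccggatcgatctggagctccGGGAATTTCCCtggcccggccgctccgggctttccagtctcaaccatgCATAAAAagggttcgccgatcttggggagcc
CXCL8 (chr4:73740449-73740568): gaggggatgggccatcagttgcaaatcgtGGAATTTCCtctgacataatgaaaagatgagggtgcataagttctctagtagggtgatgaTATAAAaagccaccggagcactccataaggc
CCL3 (chr17:36090144-36090263): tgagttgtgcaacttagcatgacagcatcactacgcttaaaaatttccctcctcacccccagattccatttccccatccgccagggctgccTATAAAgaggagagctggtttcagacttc
IL1B (chr2:112836780-112836899): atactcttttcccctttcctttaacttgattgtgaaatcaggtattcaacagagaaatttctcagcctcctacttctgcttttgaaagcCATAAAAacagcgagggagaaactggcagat
TNF (chr6:31575445-31575564): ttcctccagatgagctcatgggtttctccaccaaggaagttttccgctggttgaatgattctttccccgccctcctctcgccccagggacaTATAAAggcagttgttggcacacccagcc

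The stretches of CXCL2 and CXCL3 were alike, with 108 identical columns of 122 in a global alignment (88.5%), whereas every other pair was at or below 52.9%. The letters GGAATTTCC occurred in CXCL2, CXCL3 and CXCL8. Searched on both strands, they were found in 0.472% of the 27305 RefSeq promoter windows, which run from 250 bases before to 50 after each start site. A wider consensus for NF-κB sites matched CXCL2 and CXCL3 and 10.8% of all windows, and overlaps GGAATTTCC in both genes. TATAAA was found in CCL3, CXCL8 and TNF and in 12.0% of windows, and CATAAAA in CXCL2, CXCL3 and IL1B and in 3.82%. TGANTCA, the letters of an AP-1 site, occurred in CXCL8 and in 7.76% of windows, and TTNNGNAAT, those of a C/EBP site, in IL1B and in 11.2%. These matches describe letters only.

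The AU-rich nonamer TTATTTATT, searched on the transcript strand of GENCODE 29, also divided the genes. CXCL2 and TNF each held 5 copies (overlapping copies counted), IL1B held 2, and CXCL3 and CXCL8 held 1. No copy was found in CCL2, CCL3, CCL4, CCL5 or CXCL16. At least 1 copy was found in 8.73% of 19684 protein-coding genes, and at least 3 copies in 0.726%. The first copy in each gene is shown with 6 bases on either side, the nonamer in capitals.
CXCL2: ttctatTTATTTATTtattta
TNF: ttgtgaTTATTTATTatttat
IL1B: ccctatTTATTTATTtatttg
CXCL3: cagttgTTATTTATTcaaatt
CXCL8: aaagtaTTATTTATTtgaatc

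Before any comparison with an inhibitor, the level of most of the 10 genes differed between the untreated library and DMSO. In the untreated library, CCL2 (208 CPM) and CXCL8 (171 CPM) were the most abundant, also per kilobase of GENCODE 29 exons, at 104.9 and 75.1 CPM per kilobase. CCL5 followed at 15.7, CCL4 at 10.2 and IL1B at 7.30 CPM per kilobase, and the other 5 genes lay between 2.90 and 4.50. Exon lengths for CCL4, CXCL2, CXCL8, CXCL16, IL1B and TNF come from gene models whose ends differ from those in the files. Against the untreated library, 5, 8 and 7 of the 10 genes were at least 2-fold lower in DMSO at 12, 24 and 48 h, where 6.07%, 6.67% and 6.95% of all genes were. No gene of the 10 was 2-fold higher, where 3.33%, 4.48% and 7.68% of all genes were. CCL4 (MIP-1β), which attracts monocytes and T cells, showed the widest gap: it was at 20.7 CPM in the untreated library and at 0.308 CPM in DMSO at 12 h, a log2 ratio of -6.07 (95% interval -6.79 to -5.44). CCL3 (MIP-1α), its neighbour, was at 5.22 CPM untreated and at 0.344 to 0.524 CPM in DMSO. IL1B was the exception, with 22.6 CPM untreated and 21.9 to 35.4 CPM in DMSO. No vehicle library was made at 0 h, so handling, vehicle and time cannot be told apart in these differences.

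**Figure D1:**
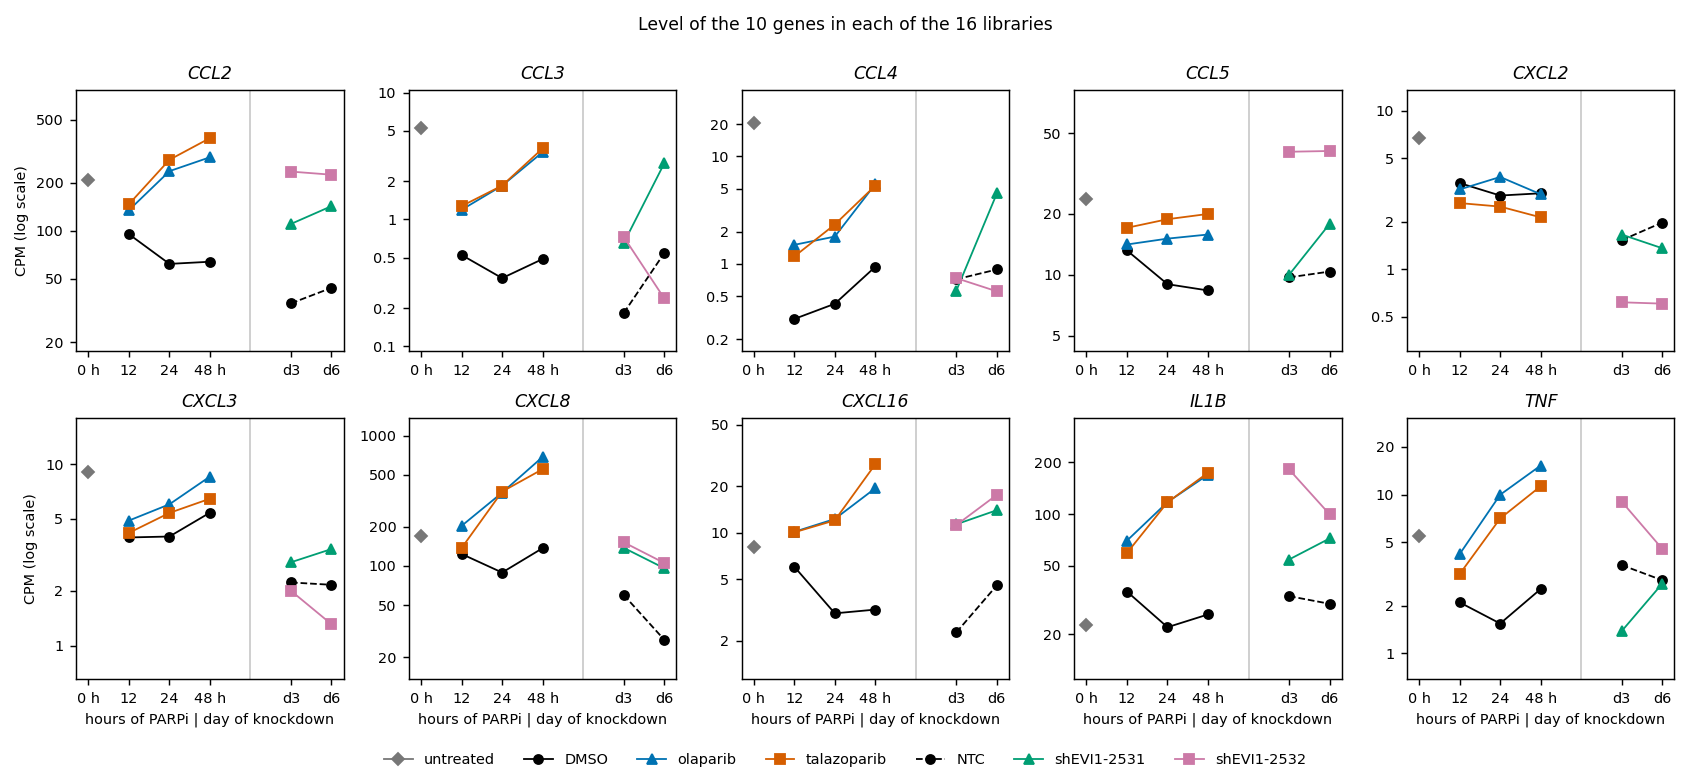
Level of each gene in all 16 libraries, in CPM on a log axis whose range differs between panels; the x axis gives hours of PARPi treatment (left of the grey line) and day of knockdown (right). Each point is 1 library with no error bar. CCL3, CCL4, CXCL2 and CXCL3 have their highest point in the untreated library, and CCL4 spans the widest range, from 0.308 to 20.7 CPM.

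With PARP inhibition, 8 of the 10 genes were above all 3 DMSO libraries in all 6 inhibitor libraries: CCL2, CCL3, CCL4, CCL5, CXCL8, CXCL16, IL1B and TNF. CXCL2 and CXCL3 were not. Of all genes, 6.67% had all 6 inhibitor libraries above DMSO, and since the genes were chosen with this contrast known, nothing is read from that count. Against DMSO of the same hour, the number of genes at least 2-fold higher was 3 with olaparib and 2 with talazoparib at 12 h, where 2.12% and 2.61% of all genes were. It was 7 and 8 at 24 h (5.80% and 7.64% of all genes) and 7 and 8 at 48 h (9.18% and 12.3%). No gene of the 10 was 2-fold lower in any inhibitor library, where 1.32%, 1.91% and 10.7% of all genes were with olaparib at 12, 24 and 48 h, and 1.16%, 3.46% and 20.3% with talazoparib. At 48 h the median of all genes stood at -0.19 with olaparib and -0.26 with talazoparib on this log2 scale of library totals, so the ratios at 48 h would be higher by about those amounts on a scale centred on the median gene.

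CCL2, which recruits monocytes through CCR2, was at 95.4, 62.1 and 64.0 CPM in DMSO at 12, 24 and 48 h. It was at 135, 237 and 289.9 CPM with olaparib and at 147, 279.6 and 382 CPM with talazoparib at those times. All inhibitor libraries were above all DMSO libraries, and those at 24 and 48 h were also above the untreated library. The log2 ratio at 48 h was 2.18 (2.13 to 2.23) with olaparib and 2.58 (2.53 to 2.63) with talazoparib.

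CCL3 was at 0.524, 0.344 and 0.487 CPM in DMSO, at 1.19, 1.84 and 3.39 CPM with olaparib and at 1.27, 1.85 and 3.625 CPM with talazoparib. CCL4 was at 0.308, 0.427 and 0.942 CPM in DMSO, at 1.51, 1.80 and 5.53 CPM with olaparib and at 1.17, 2.33 and 5.36 CPM with talazoparib. For both genes the inhibitor libraries lay above DMSO, and their level was higher at each later time. These were the only genes of the 10 that were past 2-fold with both inhibitors at 12 h, with log2 ratios of 1.18 (0.58 to 1.81) and 1.28 (0.70 to 1.89) for CCL3 and 2.29 (1.58 to 3.06) and 1.93 (1.21 to 2.71) for CCL4. At that hour the summed monocyte markers were at 1502 and 1535 CPM with olaparib and talazoparib, against 1263 CPM in DMSO. None of the inhibitor libraries reached the untreated level of either gene: at 48 h CCL3 stood at 64.9% and 69.4% of it with olaparib and talazoparib, and CCL4 at 26.7% and 25.9%. CCL5 (RANTES), which attracts T cells and monocytes, had the smallest difference among the 8 genes, with 13.2, 8.97 and 8.35 CPM in DMSO, 14.1, 15.1 and 15.8 CPM with olaparib and 17.1, 18.8 and 20.0 CPM with talazoparib. Its log2 ratio at 48 h was 0.92 (0.76 to 1.08) with olaparib and 1.26 (1.11 to 1.41) with talazoparib, and at 12 h with olaparib its interval included 0 (-0.04 to 0.24).

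CXCL8 (interleukin-8), the main neutrophil attractant in humans, was at 124, 89.0 and 137 CPM in DMSO. It was at 203, 365 and 686 CPM with olaparib and at 137, 372 and 553 CPM with talazoparib. At 12 h talazoparib stood barely above the highest DMSO library, whereas at 24 h the libraries were 4.10-fold and 4.18-fold above DMSO, with log2 ratios of 2.04 (1.997 to 2.08) and 2.06 (2.02 to 2.10). The level of 686 CPM with olaparib at 48 h was the highest of any of the 10 genes in any library.

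CXCL2 and CXCL3, whose proteins act on the same receptor as CXCL8 and whose genes lie on the same chromosome, with 292872 bases between CXCL8 and CXCL3, had no such difference. CXCL2 was at 3.50, 2.92 and 3.01 CPM in DMSO, at 3.19, 3.82 and 2.97 CPM with olaparib and at 2.61, 2.48 and 2.125 CPM with talazoparib. The talazoparib libraries were all below the DMSO libraries, as they were for 12.6% of all genes, and the olaparib libraries overlapped them. CXCL3 was at 3.94, 3.99 and 5.40 CPM in DMSO, at 4.88, 6.01 and 8.54 CPM with olaparib and at 4.18, 5.38 and 6.45 CPM with talazoparib, and the groups overlapped. Its log2 ratios were between 0.08 and 0.66. The ratio of CXCL3 to CXCL2 counts within a library does not depend on the library total. It was 1.33 untreated, 1.13, 1.37 and 1.79 in DMSO at 12, 24 and 48 h, 1.53, 1.57 and 2.87 with olaparib, and 1.60, 2.17 and 3.03 with talazoparib. At 48 h its intervals with olaparib (2.42 to 3.42) and talazoparib (2.46 to 3.76) did not overlap that of DMSO (1.50 to 2.15). At 12 h both inhibitor intervals overlapped that of DMSO, and at 24 h that of olaparib did and that of talazoparib did not.

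**Figure D2:**
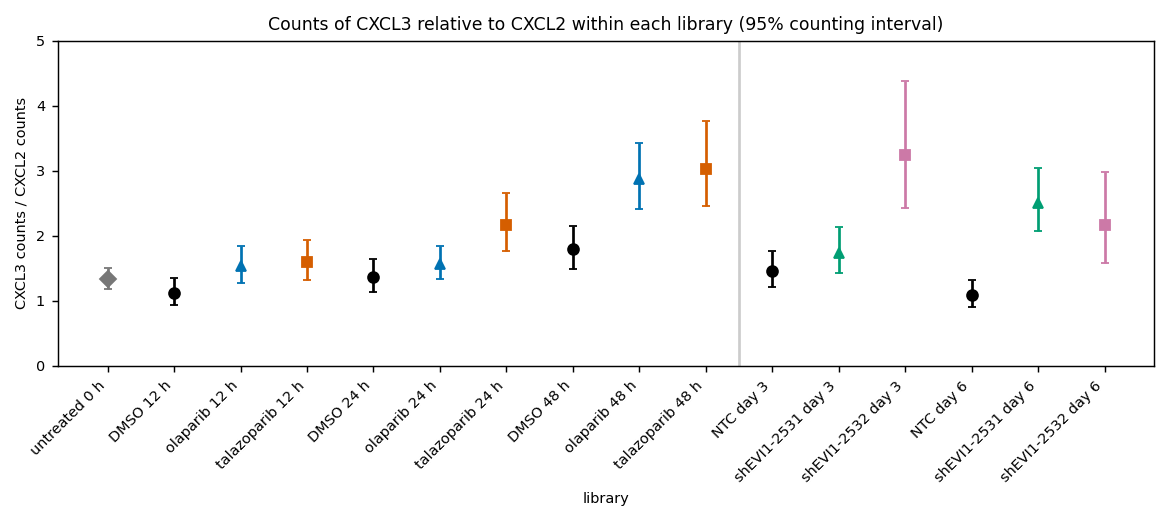
Counts of CXCL3 divided by counts of CXCL2 in each of the 16 libraries, with the exact 95% counting interval as error bars. The highest ratios are 3.24 with shEVI1-2532 at day 3 and 3.03 with talazoparib at 48 h, and control libraries lie between 1.10 and 1.79.

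CXCL16, a transmembrane chemokine that binds CXCR6 and also takes up oxidized lipoprotein, was at 6.04, 3.01 and 3.19 CPM in DMSO. It was at 10.1, 12.3 and 19.4 CPM with olaparib and at 10.1, 12.0 and 27.8 CPM with talazoparib. Every inhibitor library was above the untreated library (8.10 CPM). The log2 ratio with talazoparib at 48 h, 3.12 (2.91 to 3.34), was the highest of the 100 ratios to control of the 10 genes. Its receptor CXCR6 had at most 4 counts in any library.

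IL1B encodes the precursor of interleukin-1β, which caspase-1 cleaves to the active form. It was at 35.4, 21.9 and 26.0 CPM in DMSO, at 70.0, 117 and 169.5 CPM with olaparib and at 59.4, 117 and 174 CPM with talazoparib. The doses of the inhibitors differed, and their values were not compared. At 48 h its level was 750% of the untreated library with olaparib and 770% with talazoparib, the widest excess over untreated among the 10 genes. TNF, a membrane protein that is shed by ADAM17, was at 2.09, 1.54 and 2.54 CPM in DMSO. It was at 4.22, 9.97 and 15.2 CPM with olaparib and at 3.16, 7.07 and 11.3 CPM with talazoparib, all above DMSO. Its log2 ratio at 24 h was 2.69 (2.40 to 3.00) with olaparib and 2.20 (1.89 to 2.51) with talazoparib. TNF and CXCL2, with 5 copies of the AU-rich nonamer each, had median log2 ratios of 2.17 and -0.18 over the 6 inhibitor libraries. The part of the nonamer in these levels was not tested.

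**Figure D3:**
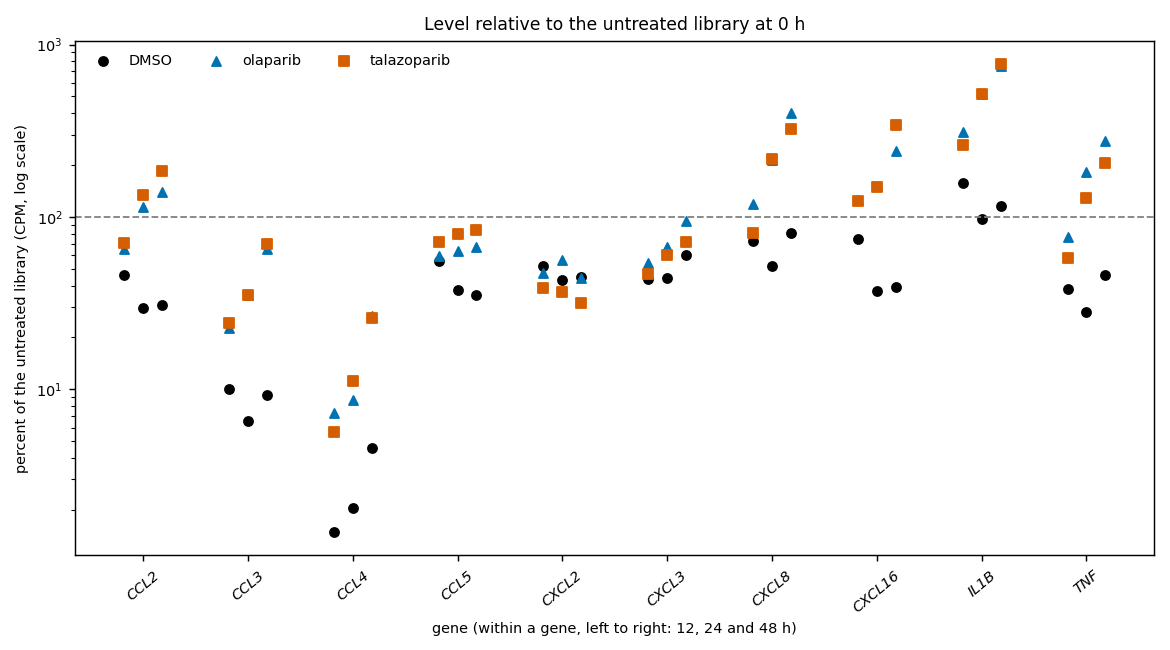
Level of each gene in the DMSO, olaparib and talazoparib libraries as a percent of the untreated library at 0 h, on a log axis, with 1 point per library and the dashed line at 100%. CCL3, CCL4, CCL5, CXCL2 and CXCL3 are below the line in all 9 libraries, and IL1B reaches 770% with talazoparib at 48 h.

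In the knockdown experiment, 4 genes were above both NTC libraries in all 4 shEVI1 libraries: CCL2, CXCL8, CXCL16 and IL1B, where 8.40% of all genes were. These 4 were also among the 8 genes above DMSO in all inhibitor libraries. The number of genes at least 2-fold above NTC of the same day was 4 with shEVI1-2531 and 7 with shEVI1-2532 at day 3 (5.06% and 9.52% of all genes), and 6 and 5 at day 6 (4.95% and 8.74%). At least 2-fold lower were 1 and 1 gene at day 3 (13.4% and 20.1% of all genes) and 0 and 2 at day 6 (10.4% and 21.5%). The genes were chosen with this contrast known too, so nothing is read from these counts. The median of all genes was between -0.14 and -0.31 in these pairs on the log2 scale of library totals. The 2 NTC libraries also differed, with CCL3 and CXCL16 at least 2-fold higher and CXCL8 2-fold lower at day 6 than at day 3, where 8.75% and 2.61% of all genes were.

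CCL2 was at 35.1 and 43.9 CPM in NTC at day 3 and day 6, at 111 and 143 CPM with shEVI1-2531 and at 236 and 225 CPM with shEVI1-2532. The libraries with shEVI1-2532, in which MECOM was lower, had the higher CCL2. With shEVI1-2531 the log2 ratio was 1.66 (1.605 to 1.71) at day 3, and with shEVI1-2532 it was 2.75 (2.70 to 2.80). CXCL16 was at 2.27 and 4.57 CPM in NTC, at 11.4 and 14.0 CPM with shEVI1-2531 and at 11.2 and 17.6 CPM with shEVI1-2532. At day 3 its log2 ratios were 2.32 (2.13 to 2.52) for shEVI1-2531 and 2.31 (2.11 to 2.50) for shEVI1-2532. CXCL8 was at 59.9 and 27.2 CPM in NTC, at 138 and 96.1 CPM with shEVI1-2531 and at 152 and 105 CPM with shEVI1-2532. All its shEVI1 libraries were above NTC, and every group was lower at day 6 than at day 3. IL1B was at 33.3 and 30.0 CPM in NTC, at 54.4 and 72.1 CPM with shEVI1-2531 and at 182 and 99.7 CPM with shEVI1-2532, and the 182 CPM at day 3 was its highest level in the 16 libraries.

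CCL5 and TNF were above NTC with shEVI1-2532 on both days, whereas with shEVI1-2531 CCL5 was above NTC at day 6 (log2 ratio 0.78, 0.68 to 0.89) and TNF was below it at day 3. CCL5 was at 9.69 and 10.4 CPM in NTC, at 9.98 and 17.8 CPM with shEVI1-2531 and at 40.5 and 40.9 CPM with shEVI1-2532. The libraries with shEVI1-2532 held its highest levels of all 16, above any inhibitor library. TNF was at 3.60 and 2.89 CPM in NTC, at 1.38 and 2.75 CPM with shEVI1-2531 and at 9.02 and 4.55 CPM with shEVI1-2532. Its log2 ratio at day 3 was -1.38 (-1.67 to -1.10) with shEVI1-2531 and 1.33 (1.16 to 1.50) with shEVI1-2532, values on opposite sides of NTC. Both shEVI1-2531 libraries were below both NTC libraries, as they were for 29.6% of all genes, but with TMM factors the day 6 ratio was 0.07.

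CCL3 and CCL4 were highest with shEVI1-2531 at day 6. CCL3 was at 0.182 and 0.541 CPM in NTC, at 0.649 and 2.76 CPM with shEVI1-2531 and at 0.728 and 0.239 CPM with shEVI1-2532. CCL4 was at 0.721 and 0.889 CPM in NTC, at 0.565 and 4.53 CPM with shEVI1-2531 and at 0.738 and 0.557 CPM with shEVI1-2532. At day 6 both stood 5.10-fold above NTC with shEVI1-2531 and below NTC with shEVI1-2532, where CCL3 had 24 counts. These genes were thus higher in the library in which MECOM stood at 41.8% of NTC than in that at 9.10%. A link to the MECOM level was not tested here either.

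CXCL2 had the lowest ratio to NTC among the 10 genes with shEVI1-2532 on both days. It was at 1.52 and 1.97 CPM in NTC, at 1.65 and 1.36 CPM with shEVI1-2531 and at 0.618 and 0.606 CPM with shEVI1-2532. The log2 ratios with shEVI1-2532 were -1.30 (-1.74 to -0.88) and -1.70 (-2.14 to -1.28), and 44.3% of all genes also had both shEVI1-2532 libraries below NTC. CXCL3 was at 2.23 and 2.16 CPM in NTC, at 2.88 and 3.40 CPM with shEVI1-2531 and at 2.004 and 1.31 CPM with shEVI1-2532. It stood above NTC with shEVI1-2531 and below it with shEVI1-2532, except that with TMM factors in place of library totals the day 3 ratio with shEVI1-2532 was 0.09. The ratio of CXCL3 to CXCL2 counts was 1.46 and 1.10 in NTC, 1.74 and 2.51 with shEVI1-2531 and 3.24 and 2.16 with shEVI1-2532. It was thus above NTC of the same day in all shEVI1 libraries, as it was above DMSO of the same hour in all inhibitor libraries. Its interval with shEVI1-2531 at day 3 (1.43 to 2.13) overlapped that of NTC (1.21 to 1.77), whereas those of the other shEVI1 libraries did not overlap NTC of their day. Among the inhibitor libraries, both at 12 h and olaparib at 24 h overlapped DMSO.

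**Figure D4:**
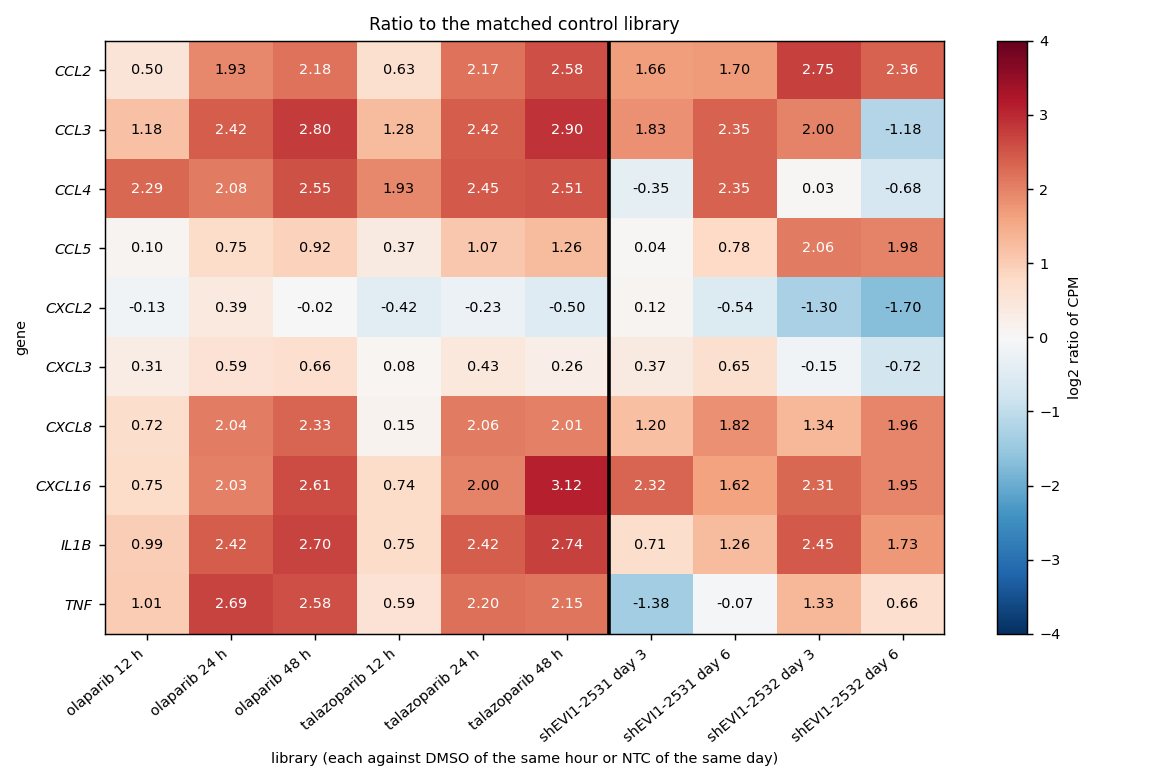
Log2 ratio of CPM of each gene (rows) in each inhibitor library to DMSO of the same hour and in each shEVI1 library to NTC of the same day (columns); red is higher and blue lower than control. Each cell compares 1 library with 1 library. The PARPi side holds no value at or below -1, while the knockdown side holds 4: CCL3 and CXCL2 with shEVI1-2532 at day 6, CXCL2 with shEVI1-2532 at day 3 and TNF with shEVI1-2531 at day 3.

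Across all 16 libraries, the levels of the 10 genes moved together to different degrees. Pearson's r of log2(CPM + 0.1) was 0.91 for CCL3 with CCL4, 0.91 for CCL2 with CXCL16 and 0.84 for CXCL2 with CXCL3, and lowest for CCL5 with CXCL2 (-0.46) and IL1B with CXCL2 (-0.41). These points share 6 control libraries, depth and treatment time, so r is a description. Among 16776 genes, the ones most like CCL4 were the immediate-early gene EGR3 (r = 0.97), its copy CCL4L2 (0.94), which shares sequence with it, and the immediate-early gene NR4A3 (0.93). EGR3 was at 42.6 CPM untreated and at 0.55 CPM in DMSO at 12 h. Most like CCL2 were CD44, an adhesion receptor (0.95), and IL1RN, the interleukin-1 receptor antagonist (0.94). Most like IL1B was SLAMF7 (0.95), like CXCL2 the hypoxia-response factor HIF1A (0.95), and like CXCL3 PTGS2, the inducible cyclooxygenase (0.94). HIF1A was at 39.5 and 41.2 CPM in NTC and at 18.4 and 21.6 CPM with shEVI1-2532. It was picked for its likeness to CXCL2 in these same libraries, so low levels shared with CXCL2 are no further result. CXCL16 was most like SCUBE1 (0.95), and ZMYND15 (0.94), a gene that overlaps it, was also among its 3 most like genes. CCL5 was most like PCDHGC3 (0.93), CXCL8 like SH2D4B (0.93), TNF like CYTIP (0.92) and CCL3 like CCL4.

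Other genes of these pathways were tested, since they were not chosen for their values, though their lists were drawn up with earlier results known. The quasi-likelihood test of edgeR was used, with adjustment after Benjamini and Hochberg across every gene tested. The threshold was an adjusted p under 0.05. In the PARPi libraries, the effect of both inhibitors changed with time on the log2 of hours for 10.0% of all genes upward and 9.82% downward. A gene is said to rise or fall against DMSO with time where its difference from DMSO moved up or down in this test, whatever its own level did. With library totals in place of TMM, 31.0% of the called genes were higher, against 50.4%. The knockdown calls shifted likewise, from 51.5% to 28.4% higher with shEVI1-2532 and from 54.6% to 31.6% with shEVI1-2531.

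Chemokine receptor genes rose more often than they fell in both experiments. Of 15 chemokine receptor genes tested with PARPi, 9 rose against DMSO with time and 1 (CX3CR1, the fractalkine receptor) fell (10.0% and 9.82% of all genes). The median slope was 0.61 log2 units per doubling of time against -0.01 over all genes. CCR2, the receptor of CCL2, was at 36.5 CPM in DMSO and at 114 and 145 CPM with olaparib and talazoparib at 48 h, with a slope of 1.06 ± 0.13 (SE; adjusted p = 3.25e-13, edgeR's quasi-likelihood test). In the knockdown, 9 of 16 receptor genes rose and 4 fell with shEVI1-2532 (21.2% and 19.9% of all genes), and 8 rose and 0 fell with shEVI1-2531 (9.49% and 7.90%). CXCR2, the receptor of CXCL2, CXCL3 and CXCL8, was at 21.5 and 24.1 CPM in NTC and at 64.6 and 94.9 CPM with shEVI1-2532, a log2 fold change of 2.08 ± 0.16 (adjusted p = 1.78e-06, edgeR's quasi-likelihood test). CCR7, which guides cells to lymph nodes, had its highest levels at 12 h, with 7.07 CPM with olaparib and 11.8 CPM with talazoparib against 0.40 CPM in DMSO, and stood at 2.51 and 0.73 CPM against 0.17 CPM at 48 h.

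Among the other CC chemokines, 24 of the 26 listed were found in the files and 10 could be tested with PARPi. Of these, 6 rose against DMSO with time and 1 (CCL28) fell (10.0% and 9.82% of all genes). CCL22, which attracts CCR4-bearing T cells, was at 32.1 CPM untreated and 7.10, 1.65 and 0.66 CPM in DMSO. It was at 7.30, 4.06 and 4.60 CPM with olaparib and at 9.99, 4.49 and 8.82 CPM with talazoparib. With shEVI1-2532, 6 of 9 rose and 2 (CCL28 and XCL2) fell (21.2% and 19.9% of all genes). With shEVI1-2531, 3 rose and the same 2 fell (9.49% and 7.90%). The numbers that fell with PARPi and with shEVI1-2532 are near the shares of all genes. CCL3L1 and CCL4L2, copies of CCL3 and CCL4, are part of this list. CCL4 shares the 5.59% of its windows given above with CCL4L2, and CCL3 shares none with CCL3L1. Of the other CXC chemokines only CXCL1 and PPBP passed the filter, and both rose against DMSO with time. CXCL1, a neighbour and close relative of CXCL2 and CXCL3, was at 8.60, 7.60 and 7.08 CPM in DMSO and at 7.69 to 11.7 CPM in the inhibitor libraries, a slope of 0.50 ± 0.15 (adjusted p = 6.20e-03, edgeR's quasi-likelihood test). This call and those of CXCL1 in the knockdown were lost with library totals in place of TMM.

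In the interleukin-1 system, most of the called genes were higher. Of 18 genes of the interleukin-1 family, its receptors and the inflammasome, 10 rose against DMSO with time and 0 fell (10.0% and 9.82% of all genes). CASP1, which cleaves the IL1B precursor, was at 27.9 CPM in DMSO and at 68.7 and 71.0 CPM with olaparib and talazoparib at 48 h, a slope of 0.77 ± 0.14 (adjusted p = 4.52e-07, edgeR's quasi-likelihood test). With shEVI1-2532, 11 of 19 rose and 1 (CASP4) fell (21.2% and 19.9% of all genes). With shEVI1-2531, 3 (IL1RN, CASP1 and NLRC4) rose and 1 (NLRP1) fell (9.49% and 7.90%). CASP1 was at 19.5 and 17.8 CPM in NTC and at 57.9 and 50.4 CPM with shEVI1-2532, a log2 fold change of 1.83 ± 0.15 (adjusted p = 3.30e-06, edgeR's quasi-likelihood test). IL1RN, whose product blocks the receptor of IL1B, was at 61.3 and 71.3 CPM in NTC and at 116 and 216 CPM with shEVI1-2531. Its log2 fold change was 1.42 ± 0.16 (adjusted p = 1.41e-04, edgeR's quasi-likelihood test).

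In the TNF family with its receptors and sheddases, 8 of 21 genes rose against DMSO with time (10.0% of all genes) and 1 (RHBDF2, needed for ADAM17 to mature) fell (9.82%). The RHBDF2 call was lost in 2 of 4 alternatives, with no filter on low counts and with DESeq2 (adjusted p up to 0.0613). With shEVI1-2532, 13 rose and 2 (TNFSF10 and TRAF2) fell (21.2% and 19.9% of all genes), and with shEVI1-2531, 6 rose and 1 (LTB) fell (9.49% and 7.90%). TNFRSF1B, the second TNF receptor, passed the test in all 3, with a slope of 0.48 ± 0.13 with PARPi and log2 fold changes of 1.07 ± 0.14 with shEVI1-2532 and 0.64 ± 0.14 with shEVI1-2531. It was named after its values were seen. TNFSF9 (4-1BB ligand) rose with both shRNAs, by 1.59 ± 0.18 with shEVI1-2532 and 2.13 ± 0.18 with shEVI1-2531 on the log2 scale. Among other inflammatory cytokines, 2 of 12 (IL32 and OSM) rose against DMSO with time and 1 (VEGFA) fell. These counts are near the shares of all genes (10.0% and 9.82%), so they say nothing particular of the list. In the knockdown, 6 of 10 rose and 1 (VEGFA) fell with shEVI1-2532 (21.2% and 19.9% of all genes). With shEVI1-2531, 4 rose and 1 (IL32) fell (9.49% and 7.90%). IL32 fell with shEVI1-2531 by 1.42 ± 0.34 on the log2 scale (adjusted p = 0.013, edgeR's quasi-likelihood test), a call that DESeq2 did not make.

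NF-κB pathway genes were called in both directions. Of 28 tested, 6 rose and 2 (MAP3K7 and IKBKG) fell against DMSO with time (10.0% and 9.82% of all genes). With shEVI1-2532, 8 rose and 3 fell (21.2% and 19.9%), and with shEVI1-2531, 5 rose and 3 fell (9.49% and 7.90%). The numbers that fell, and the number that rose with shEVI1-2532, are near or below the shares of all genes. They say nothing particular of the list. The IKBKG call was lost in 2 of 4 alternatives, with no filter on low counts and with DESeq2 (adjusted p up to 0.0696). The list's median was 0.17, 0.25 and 0.06 in these tests, where the median of all genes lay between -0.01 and 0.01. MAP3K7 (TAK1), a kinase upstream of NF-κB, was lower in all 3, with a slope of -0.75 ± 0.13 with PARPi and log2 fold changes of -1.63 ± 0.13 with shEVI1-2532 and -1.22 ± 0.13 with shEVI1-2531. NFKBIE and NFKBIZ, of the IκB family, and the feedback genes TNFAIP3 and BIRC3 were among those that rose against DMSO with time. With shEVI1-2532, NFKBIE and TNFAIP3 rose, BIRC3 fell and NFKBIZ was not called. TNFAIP3 was named outside the rule for naming given below. NFKBIE itself was at 83.2, 73.6 and 61.2 CPM with olaparib and at 84.9, 71.7 and 70.9 CPM with talazoparib, while DMSO was at 83.75, 69.2 and 40.9 CPM. Of 13 regulators of AU-rich mRNA decay, 4 rose and 3 fell against DMSO with time (10.0% and 9.82% of all genes). With shEVI1-2532, 3 rose and 2 fell (21.2% and 19.9%), and with shEVI1-2531, 2 rose and 1 fell (9.49% and 7.90%). With both shRNAs these counts are near the shares of all genes, so they say nothing particular of the list. ZFP36 (tristetraprolin), which binds the nonamer and speeds decay, rose in all 3: it was at 26.5 CPM in DMSO and at 74.5 and 102 CPM with olaparib and talazoparib at 48 h (slope 0.80 ± 0.13, adjusted p = 1.18e-07, edgeR's quasi-likelihood test). In the knockdown it was at 22.8 and 37.1 CPM in NTC, at 33.5 and 57.8 CPM with shEVI1-2531 and at 60.6 and 81.8 CPM with shEVI1-2532.

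**Figure D5:**
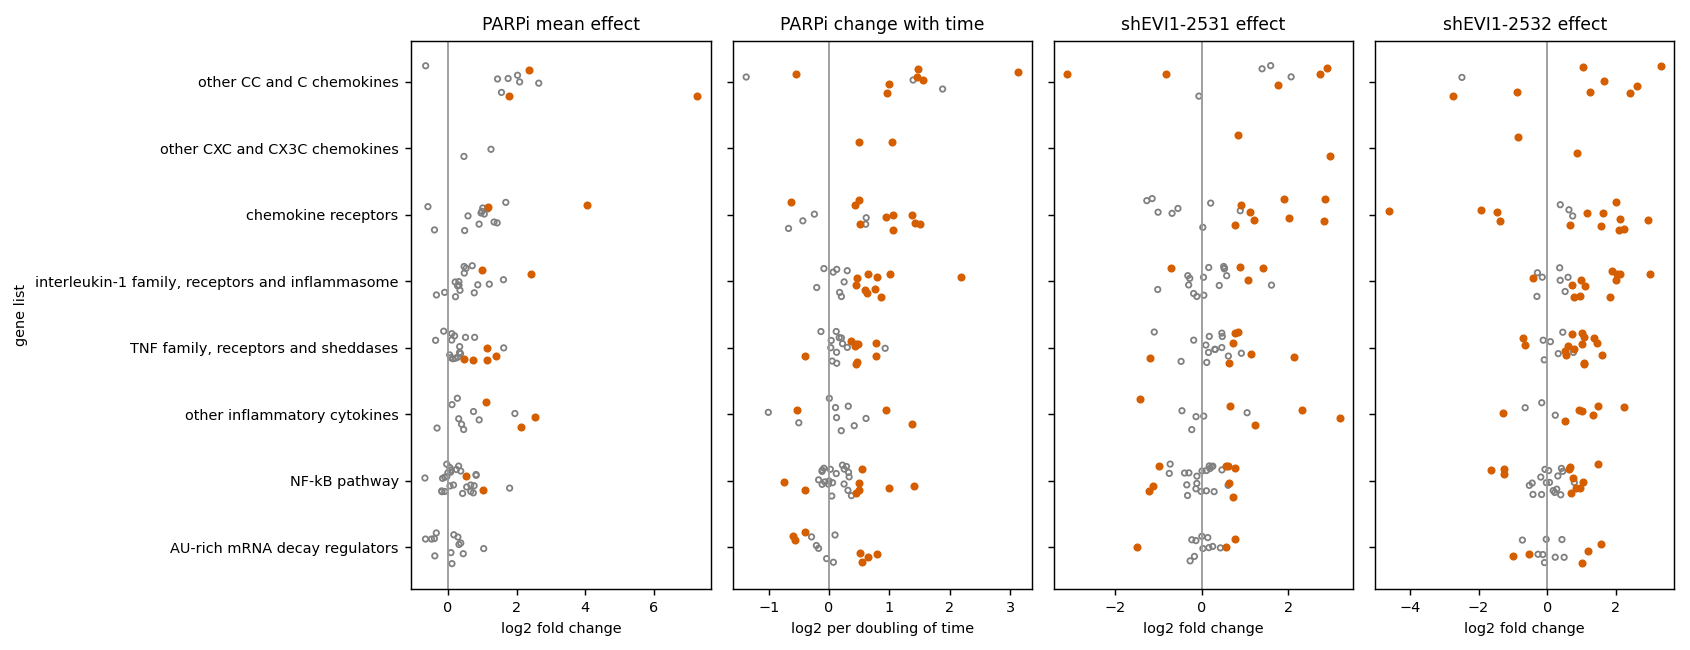
Fitted change of every tested gene of the 8 lists (rows) in the 4 edgeR tests (panels), on the log2 scale (per doubling of hours in the second panel). Each point is 1 gene, shifted up or down within its row only to keep points apart, orange where the adjusted p is under 0.05 and open grey where it is not. Receptors and interleukin-1 genes lie mostly to the right of 0, and NF-κB and AU-rich decay genes lie on both sides.

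The mean effect of the inhibitors over the 3 times, a further test, called 3.16% of genes higher and 1.01% lower. Of the lists, it called 3 of 10 CC chemokines (CCL3L1, CCL4L2 and CCL17), 0 of 2 CXC chemokines, 2 of 15 receptors (CCR7 and CXCR2), 2 of 18 interleukin-1 genes (IL1A and IL1RN), 5 of 21 TNF family genes, 3 of 12 other cytokines and 2 of 28 NF-κB genes (RELB and BCL3) higher, and none lower. No regulator of AU-rich decay passed, by edgeR's quasi-likelihood test. CCL17 was near the floor, with a median of 0.022 CPM over the 16 libraries and 0 to 80 counts, so its call is weak. IL1A, an agonist like IL1B, was at 0.88, 0.26 and 0.55 CPM in DMSO and at 1.50 to 4.27 CPM in the inhibitor libraries, a log2 fold change of 2.43 ± 0.47. Without the 24 h libraries this test called 0 genes by edgeR, and 2176 had an unadjusted p under 0.05, and 3474 were called by DESeq2 with all libraries. With no gene called, the 12 list genes singled out for this test were lost too, and their log2 fold changes were 0.62 to 4.09 without that time and 0.54 to 4.05 with it.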

How the data were processed

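RNA-Seq libraries (100 bp paired-end, TruSeq Stranded mRNA) came from MUTZ-3 cells, 1 library for each of 16 conditions. The authors deposited unnormalized counts of reads in genes. The submitters' processing notes name STAR, Picard, featureCounts, hg38 and GRCh38, without versions. The annotation and the strand setting are not given in the sources used here. The TPM that the authors deposited equal the counts divided by the whole gene span, introns included, and scaled to the library, in all 16 files. They served only to check the counts.

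CPM were computed here from counts and library totals. Each inhibitor library was set against DMSO of the same hour and each shEVI1 library against NTC of the same day. A gene was marked at 2-fold, and the share of all genes past it was taken over genes with at least 20 counts in the pair. The 10 genes and the gene lists were chosen with earlier results of these data known. The identity of shEVI1-2531 rests on the sample labels, since the names of its deposited files carry another number.

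Genes of the pathway lists were tested with edgeR 4.0.16 in R 4.3.3 (quasi-likelihood, TMM), on genes with at least 10 counts in 3 of the 9 PARPi libraries or in 2 of the 6 knockdown libraries. The PARPi models had a term for time and 1 coefficient for each inhibitor (4 residual degrees of freedom), and for the change with time also 1 slope for each inhibitor on log2 hours (2 residual degrees of freedom). The knockdown model held the day and 3 groups (2 residual degrees of freedom). With 1 library per condition, the error comes from the fit across times or days and measures only the spread between these libraries. The edgeR fit also draws the spread of each gene toward a trend shared by all genes. Very small p-values therefore rest on spread borrowed across genes, not on the 2 or 4 residual degrees of freedom of 1 gene. From each list and test, at most 2 genes in each direction with the smallest p and a mean log2 CPM above 0 were eligible to be named, besides the 10 genes themselves, the 3 genes most like each of them and MECOM. One gene eligible under this rule is not reported here. Normalization, the filter on low counts, the test (DESeq2 1.42.0), the control library, the libraries and the covariates were varied. The scripts were tested on simulated data. Promoters are those of RefSeq, matched by symbol, and transcripts those of GENCODE 29, in which 79.6% of the 58516 shared gene IDs had the coordinates of the files.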

Additional observations from a re-analysis of the deposited data

Results flagged for a closer look

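The genes searched here were the chemokine and cytokine genes described above and the 54 list genes eligible to be named, not all genes. In 6 of these genes both libraries of 1 shRNA lay on the other side of NTC from both libraries of the other shRNA. Values are on the log2 scale of library totals, and this difference was not tested. The list genes were eligible because they passed a test, for some of them a test of an shRNA. How many of all genes show this pattern was not computed, so nothing is read from the count. CXCL3 stood at 0.37 and 0.65 with shEVI1-2531 at day 3 and day 6, and at -0.15 and -0.72 with shEVI1-2532. TNF stood at -1.38 and -0.0714 with shEVI1-2531, and at 1.33 and 0.66 with shEVI1-2532. With TMM factors the day 3 value of CXCL3 with shEVI1-2532 was 0.09 and the day 6 value of TNF with shEVI1-2531 was 0.07, so neither pattern was kept at both days on that scale. MAPK14 lost it too, at 0.08 with shEVI1-2531 at day 6, whereas PPBP, NFKBIZ and NLRP1 kept it. PPBP, a platelet chemokine, stood at 3.40 and 2.28 with shEVI1-2531, and at -0.46 and -1.82 with shEVI1-2532. NFKBIZ, of the IκB family, stood at -1.23 and -0.53 with shEVI1-2531, and at 0.092 and 0.90 with shEVI1-2532. NLRP1, an inflammasome sensor, stood at -1.25 and -0.53 with shEVI1-2531, and at 0.29 and 0.14 with shEVI1-2532. MAPK14 (p38α), a stress-activated kinase, stood at -0.25 and -0.0585 with shEVI1-2531, and at 0.61 and 1.17 with shEVI1-2532.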

How the results depend on the processing

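Of the 100 ratios of the 10 genes to control, 57 were at least 2-fold higher and 4 lower, and these counts were 57 to 59 and 3 to 4 with TMM factors, DESeq2 size factors, the mean of all controls or a minimum of 10 counts in each library. No ratio past 2-fold changed sign under these alternatives. Below 2-fold, CXCL2 with olaparib at 48 h, CXCL3 with shEVI1-2532 at day 3 and TNF with shEVI1-2531 at day 6 changed sign with TMM or DESeq2 size factors. With the mean of all controls, CXCL2 with olaparib at 12 h, CXCL3 with talazoparib at 12 h, CCL5 and CXCL2 with shEVI1-2531 at day 3 and CCL4 with shEVI1-2532 at day 3 did. The mean PARPi effect called 718 genes. It called 468 with library totals, 3728 with no filter on low counts, 3474 with DESeq2, 3768 without the 12 h libraries, 0 without the 24 h libraries (where 2176 genes had p under 0.05 before adjustment), 1239 without the 48 h libraries and 16 with no time point in the model. With no day in the model, shEVI1-2532 called 3536 genes in place of 7648, and shEVI1-2531 565 in place of 3235. The cause of these differences was not tested. The other alternatives stayed within 1.5 times their count. Of the 83 calls eligible to be named, 45 held under every alternative run and 0 changed sign. CCL3 and CCL4, with as few as 22 and 20 counts, had the widest counting intervals. No paired analysis was possible because the labels carry no replicate numbers, but libraries were matched by hour or day, and the models without those terms are given above.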
